A study of Mus musculus with 2 samples.

Results

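The 79 genes described here encode the cytosolic ribosomal proteins of the mouse, 48 of the large subunit and 31 of the small subunit. They were chosen by symbol among the 11691 genes of the count table, as Rpl or Rps followed by a number with at most a letter suffix, with Rplp0, Rplp1, Rplp2 and Rpsa added. Rows named as copies (symbols with -ps, Rps27rt and Rpl6l) were left out, and the same rule does not reach Fau, Rack1, Rps3a1 and Rpl36al, which are described apart. It does take in Rps27l, Rpl3l and Rpl39l, paralogs of Rps27, Rpl3 and Rpl39. Blood myeloid cells came from C57BL/6 mice 24 h after a transient proximal middle cerebral artery occlusion, a model of ischemic stroke, with 1 library from young mice of 2 to 4 months and 1 from aged mice of 18 to 24 months. Both groups had the occlusion, and no library of mice without stroke was analysed here. Sorting took CD11b+ cells, both Ly6G- and Ly6G+, and 3′ ends of transcripts were counted by unique molecular identifiers (UMIs) on the 10x v2 platform. Whether an age group pooled several mice is not given in the sources used here. With 1 library per age, aged and young values compare these libraries and carry no replicate check, and intervals are 95% and cover counting error only. Populations are the authors' labels.

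Each cytosolic ribosome joins a small subunit, which reads the mRNA, to a large subunit, which forms peptide bonds and ends in a stalk that recruits elongation factors. Ribosomal protein mRNAs are among the most abundant of growing cells, and most begin with a C and a run of pyrimidines at the cap, the terminal oligopyrimidine (TOP) tract, through which mTOR signalling and LARP1 control their translation. Mature neutrophils are short-lived, largely transcriptionally quiet cells, whereas monocytes, dendritic cells and lymphocytes keep a larger translation machinery.

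The start sites of members that stood apart in the results show this tract in some cases and not in others. The windows below run from 10 bases before the start to 20 after it, from RefSeq on GRCm38.p6, which shares its coordinates with mm10. Capitals mark a C followed by at least 4 pyrimidines within 5 bases of the start. Rps27, Rps9, Rpl13a, Rpl38, Rps18 and Rpl12 held such a run, and Rps28 and Rpl41 held none. These calls hold for the start annotated in RefSeq, and whether these cells use that start was not tested.
Rps27 (chr3:90213629-90213658, minus strand): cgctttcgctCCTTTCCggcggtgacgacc
Rps9 (chr7:3704031-3704060, plus strand): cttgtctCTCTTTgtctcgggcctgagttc
Rpl13a (chr7:45128726-45128755, minus strand): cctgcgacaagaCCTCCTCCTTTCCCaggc
Rpl38 (chr11:114668570-114668599, plus strand): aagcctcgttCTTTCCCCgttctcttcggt
Rps18 (chr17:33955646-33955675, minus strand): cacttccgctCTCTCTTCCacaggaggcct
Rpl12 (chr2:32961702-32961731, plus strand): agcaggatccgtCTTTTCggctttcggctc
Rps28 (chr17:33824543-33824572, minus strand): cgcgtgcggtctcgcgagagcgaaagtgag
Rpl41 (chr10:128549149-128549178, minus strand): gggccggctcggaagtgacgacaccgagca
Promoter windows were found for 59 of the 79 members. The tract was present in 28 of these 59 (47.5%) against 21.2% of 27025 genes with a window. GGAAG or its complement CTTCC, within 60 bases before the start, stood in 27 (45.8%) against 27.0%. ATGGCG or its complement CGCCAT, within 50 bases on either side of the start, stood in 10 (16.9%) against 5.42%. TATAAA between 40 and 20 bases before the start stood in 0 of 59 members and 2.41% of all genes, searched on the coding strand alone. These are matches of letters and not binding sites.

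Of the members, 6 have reading frames of at most 250 bases, and 3 of them are shown here, since they return below for their aged over young ratios. The frames come from GENCODE M21 and include the stop codon.
Rpl41 (chr10:128548114-128549305, minus strand, 78 bases): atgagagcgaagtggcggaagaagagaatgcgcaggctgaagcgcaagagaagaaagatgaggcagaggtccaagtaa
Rps28 (chr17:33819027-33824562, minus strand, 210 bases): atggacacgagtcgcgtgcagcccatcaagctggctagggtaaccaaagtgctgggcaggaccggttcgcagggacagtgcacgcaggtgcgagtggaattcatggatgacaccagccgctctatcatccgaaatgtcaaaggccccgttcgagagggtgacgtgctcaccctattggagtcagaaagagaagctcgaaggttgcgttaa
Rpl38 (chr11:114668524-114672331, plus strand, 213 bases): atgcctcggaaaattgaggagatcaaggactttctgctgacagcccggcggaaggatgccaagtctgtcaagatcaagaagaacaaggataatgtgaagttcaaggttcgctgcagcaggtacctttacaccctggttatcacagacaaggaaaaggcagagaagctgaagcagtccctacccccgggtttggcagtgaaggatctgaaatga
Rps27 and its paralog Rps27l have frames of equal length, 255 bases, that differ at 61 bases (76.1% identity). Differing bases are in capitals, since the members of this pair took opposite directions in NK and B cells against monocytes.
Rps27 (chr3:90212522-90213651, minus strand): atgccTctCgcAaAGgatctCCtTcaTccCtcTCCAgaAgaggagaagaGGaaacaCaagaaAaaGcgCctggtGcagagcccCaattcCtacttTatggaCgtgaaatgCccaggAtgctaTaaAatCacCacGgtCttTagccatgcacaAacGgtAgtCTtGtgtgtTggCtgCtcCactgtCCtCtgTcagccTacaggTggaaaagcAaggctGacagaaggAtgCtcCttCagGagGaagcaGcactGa
Rps27l (chr9:66946086-66949516, plus strand): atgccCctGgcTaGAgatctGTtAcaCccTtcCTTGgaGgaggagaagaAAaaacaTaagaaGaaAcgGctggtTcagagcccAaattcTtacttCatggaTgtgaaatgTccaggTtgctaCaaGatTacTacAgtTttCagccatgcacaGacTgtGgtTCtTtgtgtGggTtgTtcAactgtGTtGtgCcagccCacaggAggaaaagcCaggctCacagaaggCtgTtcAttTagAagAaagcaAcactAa

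The table held 1849 young and 3944 aged cells with 6440664 and 13752454 UMIs. After removal of likely doublets 1822 and 3820 cells remained. Among neutrophils, monocytes, dendritic, NK and B cells, median depth was lowest in neutrophils (1629 young and 1900 aged UMIs). Monocytes had 6606.5 and 6401.5, and aged cells labelled mast cells had 1845.5. The libraries shared 12 cell barcodes. Each labelled population was highest in its own marker list, by summed CPM (UMIs of a gene per 1000000 UMIs of the population). Through MHC class II genes, B cells had 22411 young and 18585 aged CPM in the dendritic list, against 26727 and 28208 in dendritic cells. The T cell list was highest in NK cells, at 468 young and 1068 aged CPM, and its part in the NK results was not tested. The 10 neutrophil markers summed to 340879 and 430459 CPM in young and aged neutrophils. In the other populations taken up below they summed to 10215 to 25386 CPM in the young and 21695 to 36036 CPM in the aged library. Neutrophil transcripts were therefore present in every population and were higher in the aged library, and their part in the results was not tested.

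Ribosomal protein transcripts took several times the share of UMIs in monocytes, dendritic, NK and B cells that they took in neutrophils. Of all monocyte UMIs, the 79 genes held 25.5% in young and 22.9% in aged cells (mean 24.2% ± 1.84, SD, n = 2 libraries). Neutrophils had 6.04% (exact binomial interval 6.01% to 6.07%) and 3.75% (3.74% to 3.77%), a mean of 4.90% ± 1.62. Conventional dendritic cells had 30.4% and 27.9% (29.2% ± 1.79), NK cells 27.5% and 29.0% (28.3% ± 1.07), and follicular B cells 38.4% and 30.2% (34.3% ± 5.81). Neutrophils lay below monocytes, dendritic, NK and B cells in both libraries, by far more than the libraries differed. Monocytes lay below dendritic, NK and B cells in both libraries, while dendritic and NK cells took opposite orders in them. The 42 aged cells labelled mast cells had 19.5%. Cells labelled Eryth-Neutro, of which there were 13 and 15, had 1.16% and 2.29%, beside 88.3% and 65.4% of their UMIs in hemoglobin genes.

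**Figure D1:**
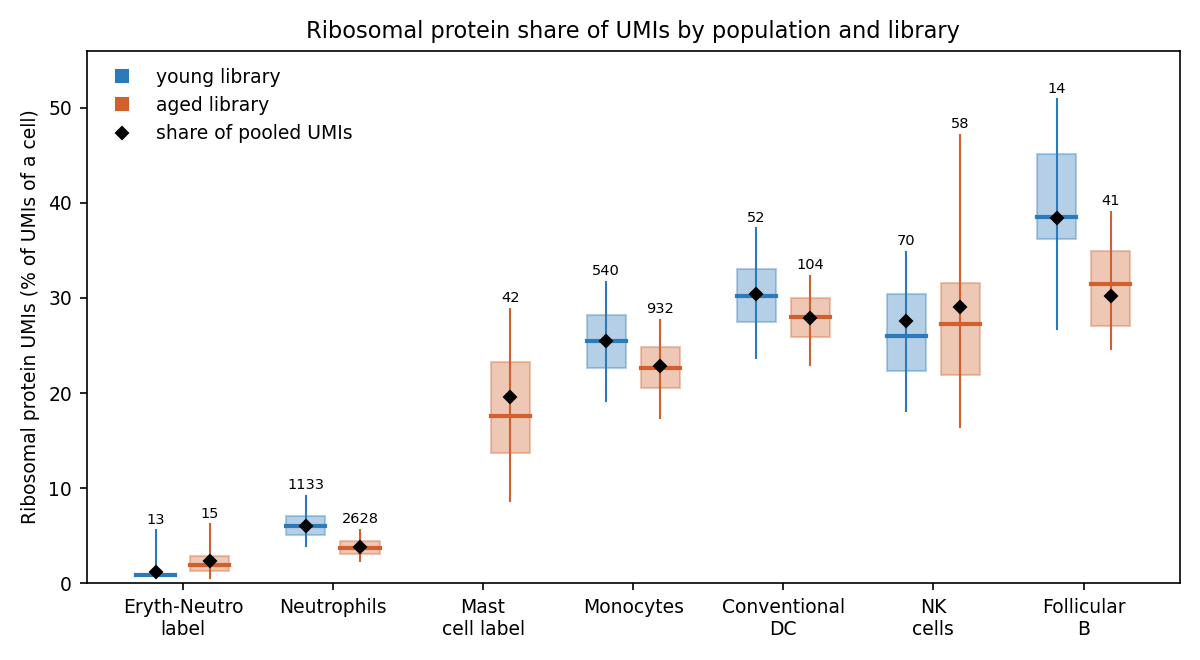
Percent of each cell's UMIs in the 79 ribosomal protein genes (vertical axis), by labelled population and library. Boxes span the quartiles with the median as a line, whiskers run from the 5th to the 95th percentile of cells, diamonds are the pooled share and numbers are cells; the neutrophil box and whiskers lie below those of monocytes, dendritic, NK and B cells in both libraries, while single cells overlap.

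The gap between neutrophils and monocytes held cell by cell. The median young neutrophil had 6.00% of its UMIs in these genes and the median aged one 3.71%, with the 5th and 95th percentiles of cells at 3.91% and 9.17%, and at 2.28% and 5.63%. Among monocytes the medians were 25.5% and 22.6%, with these percentiles at 19.1% and 31.7%, and at 17.4% and 27.7%. None of 1133 young and 2628 aged neutrophils reached the 5th percentile of monocytes in its library, and no monocyte of 540 and 932 fell to the 95th percentile of neutrophils. The extremes met: the highest neutrophil had 15.9% and 12.1%, and the lowest monocyte 14.7% and 6.62%. In UMIs per cell, the median neutrophil had 103 and 73 from these genes and the median monocyte 1633 and 1431.5. Thinned to 500 UMIs, the median cell had 6% and 3.8% in neutrophils and 25.8% and 22.8% in monocytes. Within young neutrophils the median went from 6.75% in the shallowest of 4 depth groups to 5.17% in the deepest, and within aged ones from 4.02% to 3.49%. S100a8, S100a9 and Retnlg, the most abundant neutrophil transcripts of the marker list, took 32.9% and 41.7% of neutrophil UMIs. With these 3 genes left out of the total, the neutrophil share was 9.01% and 6.44%.

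Nearly all members were lower in neutrophils than in monocytes, and the largest differences were those of Rpl10a, Rpl3, Rpl12 and Rps18. Populations were compared by edgeR's quasi-likelihood test on UMIs summed per population and library, with library as a term and Benjamini-Hochberg adjustment over all genes at 0.05. The libraries of 2 ages are the only replicates, so these p-values measure how alike the difference was in both. Of 78 members with at least 20 UMIs, 76 were higher in monocytes, 1 was lower and 1 did not pass. Over all 9845 genes tested, 64.5% were higher and 10.7% lower. The median log2 difference was 2.67 for the members and 1.44 for all genes. With TMM scaling the medians were 1.51 and 0.26, members split 73 higher and 2 lower, and all genes 3617 higher and 2983 lower.

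Rpl10a, of the mobile L1 stalk by which spent tRNA leaves, stood at 129 and 59.1 CPM in young and aged neutrophils and at 2036 and 2056 CPM in monocytes. Its log2 difference was 4.55 (SE 0.35, edgeR adjusted p = 1.81e-36), which is 15.7-fold in the young and 34.8-fold in the aged library. Both monocyte values lay far above both neutrophil values. Rpl3, close to the peptidyl transferase centre, stood at 141 and 77.5 CPM in neutrophils and 2279 and 2336 CPM in monocytes. Rpl12, at the base of the stalk that recruits elongation factors, had 72.5 and 34.7 CPM against 1037 and 1000 CPM. Rps18, of the head of the small subunit, had 269 and 152 CPM against 3923 and 4058 CPM. In each of these 3 genes the fold was larger in the aged library (30.1, 28.9 and 26.6) than in the young (16.2, 14.3 and 14.6). The stalk proteins proper differed by less: Rplp0, the anchor, by 7.40-fold and 10.0-fold, Rplp1 by 5.72-fold and 7.90-fold, and Rplp2 by 4.74-fold and 6.59-fold.

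Rps9, a small subunit protein of the mRNA entry channel, was the exception among abundant members. It had 4942 and 3814 CPM in neutrophils and 5353 and 5458 CPM in monocytes, a fold of 1.08 between young and 1.43 between aged cells. The log2 difference of 0.32 (SE 0.32) did not pass (edgeR adjusted p = 0.369), and with TMM scaling it was −0.84 (edgeR adjusted p = 2.36e-09). Over 8 alternatives its adjusted p ran from 2.36e-09 to 0.400, and the sign was negative in 3. Rps9 lies at chr7:3703993-3706897 on mm10, and GENCODE M21 lists no overlapping gene there and no row named as its copy. Rps27a, translated as a fusion with ubiquitin, had 3211 and 2082 CPM in neutrophils against 6009 and 5458 CPM in monocytes. Rps27, a zinc-binding protein of the small subunit, had 3682 and 1802 CPM against 6057 and 3695 CPM, and Rpl37, a zinc-binding protein of the large subunit, 2603 and 1309 CPM against 4249 and 3034 CPM. These 3 genes passed as higher in monocytes with log2 differences of 1.15, 0.88 and 0.96 (edgeR adjusted p = 0.000714, 0.00921 and 0.00377), and the sign turned with TMM scaling, to −0.01, −0.28 and −0.20. Rpl3l, the muscle paralog of Rpl3, was the member lower in monocytes, from only 78 and 109 UMIs in neutrophils and 85 and 82 in monocytes.

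**Figure D2:**
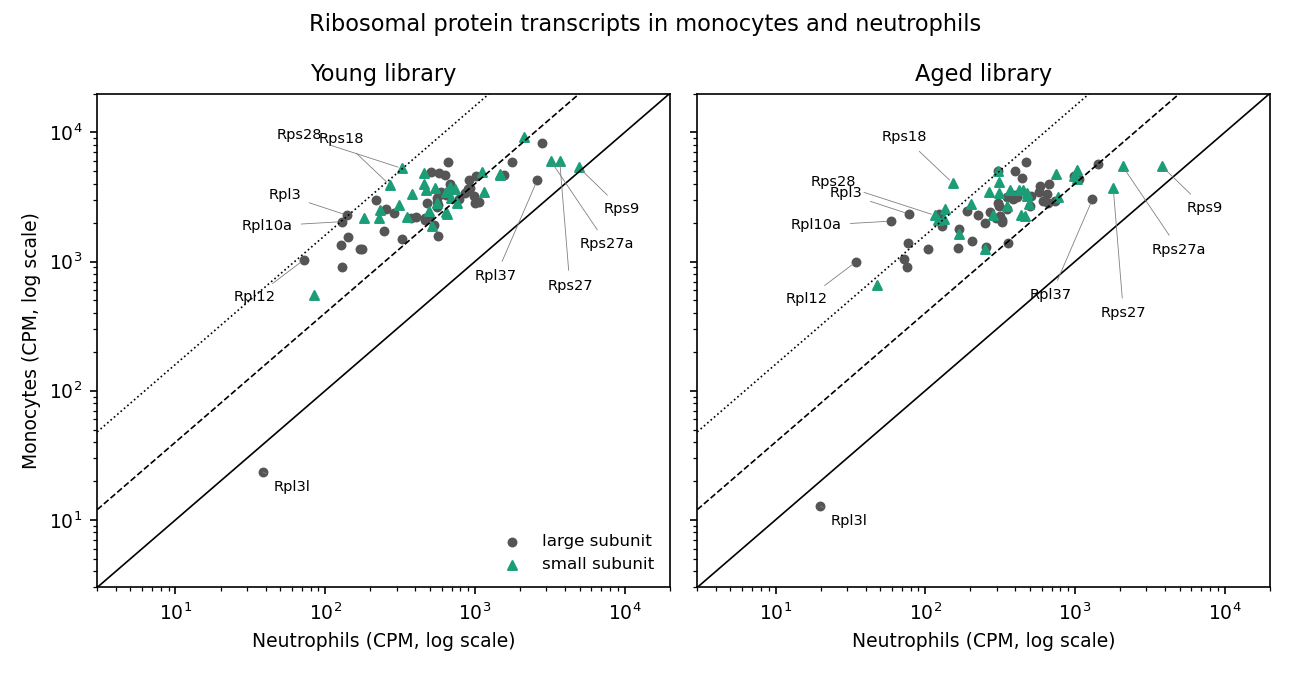
Level of each member in monocytes (vertical axis, CPM, log scale) against neutrophils (horizontal axis, CPM, log scale), in the young and the aged library, with circles for the large and triangles for the small subunit. Nearly all points lie above the solid line of equal levels, and Rps9 and Rpl3l lie closest to or below it; the broken lines mark constant folds.

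The mixture of ribosomal protein transcripts also differed between the populations. UMI counts of 3′ ends do not scale with transcript length, so a member's percent of all member UMIs is used as its share of molecules. In neutrophils Rps9 led, with 8.18% of member UMIs in young and 10.2% in aged cells, and the first 5 members held 28.6% and 27.8%. In monocytes the leading member was Rps29 at 3.61% in the young and Rpl10 at 2.56% in the aged library, and the first 5 held 14% and 12.1%. Rps9 took 2.1% and 2.39% of member UMIs in monocytes, 2.05% and 2.23% in dendritic cells, 1.14% and 1.40% in NK cells and 1.71% and 1.90% in B cells. Its share in neutrophils thus exceeded that of each other population in both libraries. Rps27 led in NK cells at 4.00% and 2.77% and in B cells at 3.73% and 2.74%. Large subunit members took 50.6% and 49.4% of member UMIs in neutrophils and 55.0% to 56.4% in monocytes, dendritic, NK and B cells.

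Library size was then set to the summed member UMIs, so that a member is compared with the members as a whole. In this fit 37 of 78 members were higher in monocytes than in neutrophils and 14 lower, against 13.3% and 51.7% of all genes. The scaling moved the median log2 difference of all genes from 1.44 to −0.94, so the shares of all genes follow from it in part. The same holds for the fits relative to the members below. Members higher relative to the rest were led by Rpl10a (log2 2.21, SE 0.19), Rpl3 (2.13), Rpl12 (2.01), Rps18 (1.96), Rps28 (1.81) and Rpl35 (1.66). Rpl10a moved from 0.214% and 0.157% of member UMIs in neutrophils to 0.800% and 0.899% in monocytes, and Rps18 from 0.446% and 0.406% to 1.54% and 1.78%. The lowest were Rpl3l (log2 −3.02), Rps9 (−2.03, SE 0.17, edgeR adjusted p = 8.56e-33), Rps27 (−1.46, edgeR adjusted p = 1.01e-17), Rpl37 (−1.38), Rps27a (−1.19) and Rpl30 (−0.61). Rps27 went from 6.10% and 4.8% to 2.38% and 1.62%, and Rps27a from 5.32% and 5.55% to 2.36% and 2.39%. The 12 members named here passed also with DESeq2. Among the stalk proteins Rplp0 had a log2 difference of 0.76 and Rplp1 of 0.41 (edgeR adjusted p = 0.0299), and Rplp2 of 0.14 did not pass (edgeR adjusted p = 0.468).

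**Figure D3:**
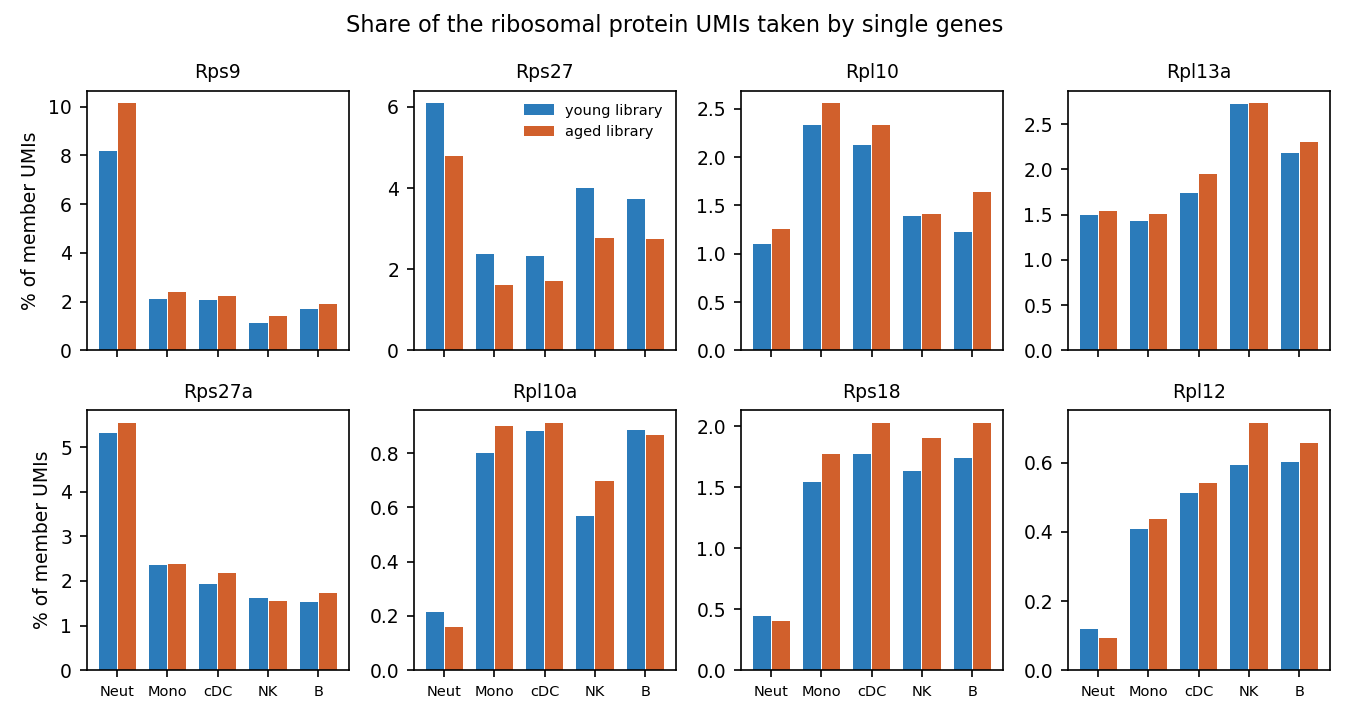
Percent of all ribosomal protein UMIs taken by 8 members (bars from 0) in 5 populations of the young and the aged library. Rps9, Rps27 and Rps27a stand highest in neutrophils, Rpl10a, Rps18 and Rpl12 lowest, and Rpl13a and Rps27 differ between monocytes and lymphocytes.

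Conventional dendritic cells, which present antigen and arise from progenitors shared with monocytes, had slightly higher levels of most members than monocytes. By the same edgeR test 58 of 78 members were higher and 1 was lower, against 8.07% and 7.78% of 9547 genes, and the median log2 difference was 0.26 against 0.01 for all genes. DESeq2 called 12 higher and 0 lower, with 25 members at an unadjusted p under 0.05, and 211 higher and 209 lower of all genes. Relative to the members as a whole, 13 were higher and 9 lower, against 4.67% and 16.0% of all genes. Rpl4, a large subunit protein that lines the exit tunnel, had 1714 and 1781 CPM in monocytes and 2802 and 2669 CPM in dendritic cells. Its difference relative to the members was 0.37 on the log2 scale (edgeR adjusted p = 1.35e-05). Rpl13a, Rpl12, Rpl14 and Rpl17 followed at 0.33, 0.32, 0.28 and 0.26. Among the lowest were Rpl3l at −2.14, Rps27l at −0.49 (edgeR adjusted p = 2.93e-05), Rps29 at −0.33, Rpl37a at −0.28 and Rpl38 at −0.24. With DESeq2 none of the members named here passed relative to the members as a whole, and 1 other did, among 9 at an unadjusted p under 0.05, beside 147 higher and 378 lower of all genes.

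NK cells, cytotoxic lymphocytes, had a ribosomal protein share near that of dendritic cells but another mixture. By edgeR 14 of 78 members were higher than in monocytes and 3 lower, against 8.94% and 8.86% of 9505 genes, with a median log2 difference of 0.24 for the members and 0.04 for all genes. The scaling set this direction: with TMM, 1 member was higher and 5 lower, the members' median was −0.06 and that of all genes −0.26, and all genes split 595 higher and 1257 lower. Relative to the members as a whole, 10 were higher and 15 lower, against 5.82% and 10.2% of all genes. Rpl13a, a large subunit protein, had 3636 and 3449 CPM in monocytes and 7497 and 7938 CPM in NK cells, and it was higher than the other members by 0.89 on the log2 scale (SE 0.11, edgeR adjusted p = 1.2e-13). Rps27 had 6057 and 3695 CPM in monocytes and 11011 and 8046 CPM in NK cells, a relative log2 difference of 0.76 (edgeR adjusted p = 1.64e-11). In both genes each NK value exceeded each monocyte value. Rpl36 and Rpl12 followed at 0.63, Rpl5, which binds 5S rRNA, at 0.51 and Rps24 at 0.41.

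The members lower in NK cells were led by the paralog Rps27l. It had 554 and 662 CPM in monocytes and 220 and 179 CPM in NK cells, a relative log2 difference of −1.82 (SE 0.26, edgeR adjusted p = 1.55e-10). Rps27l is known as a target gene of p53, and it was lower in NK cells while Rps27 was higher. Rps9 had 5353 and 5458 CPM in monocytes against 3127 and 4059 CPM in NK cells (−0.83, edgeR adjusted p = 1.18e-10). Rpl10, which joins the large subunit late in its assembly, had 5944 and 5857 CPM against 3842 and 4087 CPM (−0.80, edgeR adjusted p = 1.61e-10). Rpl7a, Rpl28 and Rps27a were at −0.68, −0.60 and −0.58. With DESeq2 3 members were higher (Rpl13a, Rps27, Rpl36) and 5 lower (Rps27l, Rps9, Rpl10, Rpl7a, Rps27a), beside 319 higher and 447 lower of all genes.

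Follicular B cells had the largest ribosomal protein shares, from only 14 young and 41 aged cells. By edgeR 27 of 78 members were higher than in monocytes and 1 lower, against 3.77% and 3.90% of 9455 genes, with a median log2 difference of 0.50 against −0.08 for all genes. DESeq2 called 0, with 2 members at an unadjusted p under 0.05, and 123 higher and 15 lower of all genes. Relative to the members as a whole, 2 were higher and 3 lower, against 2.15% and 8.74% of all genes. The count higher was close to the share of all genes and the count lower was below it, so neither stood out. Those higher were Rps27, at 14344 and 8265 CPM (0.71, SE 0.18, edgeR adjusted p = 0.00199), and Rpl13a, at 8365 and 6957 CPM (0.61, edgeR adjusted p = 0.0158). Those lower were Rps27l, at 268 and 462 CPM (−1.20, edgeR adjusted p = 0.000786), Rpl10, at 4697 and 4949 CPM (−0.79, edgeR adjusted p = 0.000793), and Rps27a (−0.55, edgeR adjusted p = 0.0321). With DESeq2 none of these 5 passed, and 1 member had an unadjusted p under 0.05, beside 88 higher and 46 lower of all genes. The comparisons of dendritic, NK and B cells use the same monocytes, so the likeness of NK and B values is not independent.

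**Figure D4:**
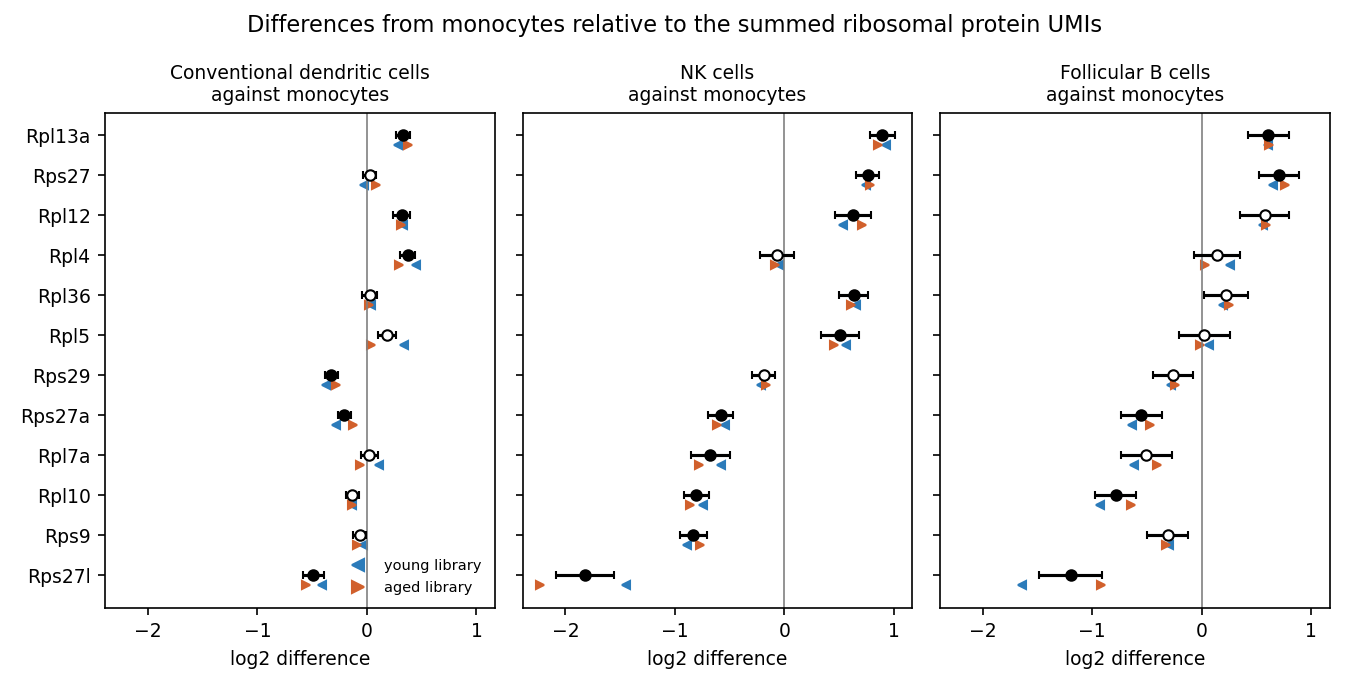
Log2 difference from monocytes relative to the members as a whole (horizontal axis) for 12 genes in dendritic, NK and B cells. Filled circles passed edgeR at an adjusted p of 0.05, open ones did not, bars are 1 SE, and triangles give the young and the aged library; Rps27 and Rpl13a lie to the right and Rps27l to the left in NK and B cells.

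Other genes of the translation machinery were taken from lists. In monocytes against neutrophils, 5 of 6 ribosomal proteins outside the symbol rule were higher and 0 lower by edgeR, with a median log2 difference of 2.46. The member of that list that did not pass was Fau, which encodes Rps30 fused to a ubiquitin-like protein, at 5755 and 3450 CPM in neutrophils and 6103 and 5079 CPM in monocytes (log2 0.32, SE 0.32, edgeR adjusted p = 0.36). Rps3a1, of the small subunit, differed by 2.68. Of 22 elongation factor and other TOP genes 20 were higher and 0 lower (median 2.39), with the elongation factor Eef1a1 at 3.24, Tpt1 at 1.82 and Vim at 1.14. Of 31 initiation factors 29 were higher (median 2.81), and of 76 mitochondrial ribosomal proteins 72 were higher and 1 lower (median 2.91). Ribosome biogenesis genes had a median of 3.92, with 50 of 52 higher. The nucleolar chaperone Npm1 stood at 14.8 and 14.6 CPM in neutrophils and 358 and 371 CPM in monocytes. Of 15 regulators 10 were higher and 2 lower, near the 64.5% and 10.7% of all genes, and their median of 1.14 lay below the 1.44 of all genes and at −0.04 with TMM scaling. With TMM scaling, where the all-gene median was 0.26, the medians of the other lists were 1.30 outside the rule, 1.21 for TOP genes, 1.66 for initiation factors, 1.73 for mitochondrial ribosomal proteins and 2.73 for biogenesis genes, and Fau and Vim turned to −0.84 and −0.01. Eif4ebp1, an inhibitor of the cap-binding factor that mTOR controls, was higher in neutrophils, at 535 and 462 CPM against 259 and 265 CPM (log2 −0.92, edgeR adjusted p = 0.002).

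The background for these lists is the share of all genes called higher and lower, 8.07% and 7.78% in dendritic cells, 8.94% and 8.86% in NK cells and 3.77% and 3.90% in B cells. Against monocytes, dendritic cells had 12 of 22 elongation and TOP genes higher and 0 lower (median 0.29) and 16 of 52 biogenesis genes higher (median 0.49), and 1 higher and 5 lower of 76 mitochondrial ribosomal proteins, the latter close to the share of all genes. NK cells had 11 of 52 biogenesis genes higher and 0 lower (median 0.42), and 4 higher and 2 lower of the TOP genes (median 0.22). Of the 76 mitochondrial ribosomal proteins 7 were lower, close to the share of all genes, and 0 higher, below it (median −0.37). With TMM scaling the TOP median in NK cells turned to −0.08 and the biogenesis median was 0.13. In that fit 17 of the 76 mitochondrial ribosomal proteins were lower and 0 higher (median −0.67), against 1257 lower and 595 higher of 9505 genes. In B cells 6 TOP genes were higher and 1 lower, and 4 mitochondrial ribosomal proteins were lower. Cytosolic and mitochondrial ribosomal proteins thus had opposite signs of the median in NK cells, while the cytosolic sign turned with TMM scaling.

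Levels of nearly all members were lower in aged than in young neutrophils. Of 78 members with at least 50 UMIs, 78 had a ratio of aged over young below 1, 77 with an interval below 1. By at least 1.5-fold, 55 were lower and 0 higher, against 20.3% and 3.79% of 4745 genes. The pooled ratio was 0.622 (0.617 to 0.626), and the median log2 ratio −0.66 (SD 0.22 over members, from −1.48 to −0.09), against −0.24 for all genes. With TMM scaling these medians were −0.41 and 0.01, and 17 members were lower and 0 higher by 1.5-fold, against 392 lower and 399 higher of 4745 genes. The 3 abundant neutrophil transcripts named above took more UMIs in the aged library, and without them in the totals the members' median was −0.46. Lowest was Rps28, a small subunit protein near the mRNA exit, with 660 UMIs (326 CPM) in young and 640 UMIs (117 CPM) in aged cells, which gives a ratio of 0.359 (0.321 to 0.400). The gene Kank3 overlaps it on the other strand. Rpl38 was at 0.422, Rpl10a at 0.457 (0.387 to 0.540), Rpl27 at 0.473, Rpl12 and Rps26 at 0.478, Rps29 at 0.483 (0.465 to 0.503), Rps21 at 0.488, Rps27 at 0.489, Rpl37 at 0.503 and Rpl41 at 0.506. The ratios nearest to 1 were those of Rps9 at 0.772 (0.754 to 0.790) and Rpl7a at 0.937 (0.828 to 1.06), whose interval takes in 1 and whose ratio lay above 1 with TMM scaling. Next were Rpl28 at 0.737, Rps12 at 0.725, Rpl10 at 0.709, Rps24 at 0.705, Rpl23a at 0.704 and Rps16 at 0.698. The stalk proteins lay near the middle, Rplp0 at 0.703, Rplp1 at 0.670 and Rplp2 at 0.647.

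In monocytes of the same libraries the ratios centred near 1. Of 78 members, 5 were at least 1.5-fold lower and 0 higher, against 8.68% and 5.88% of 7778 genes. The median log2 ratio was −0.06 against 0.01 for all genes, and the pooled ratio 0.898 (0.896 to 0.900). Intervals lay below 1 for 46 members and above 1 for 14. The lowest were Rps28 at 0.432 (0.423 to 0.441), Rpl3l at 0.546, Rps29 at 0.558 (0.549 to 0.566), Rpl38 at 0.574, Rps27 at 0.610, Rps21 at 0.667, Rpl27 at 0.678, Rpl41 at 0.687 and Rpl37 at 0.714. The largest ratio was that of Rps27l at 1.19 (1.13 to 1.26), followed by Rps6, Rpl18 and Rpl14 at 1.05. Rps9 was at 1.02 (1.00 to 1.04) and Rpl10a at 1.01 (0.981 to 1.04). Rplp0, Rplp1 and Rplp2 were at 0.950, 0.924 and 0.899. The difference between neutrophils and monocytes in these ratios has no replicate and was not tested.

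In dendritic cells 3 of 77 members were at least 1.5-fold lower and 0 higher, against 5.95% and 9.31% of 2504 genes, and the median log2 ratio was −0.06 against 0.07. In NK cells 1 of 77 was lower and 0 higher, against 11.0% and 5.73% of 698 genes, and the members' median of 0.14 lay above that of all genes at 0.00. Intervals lay above 1 for 32 members of NK cells and below 1 for 8, with Rps19, a gene mutated in Diamond-Blackfan anemia, at 1.44 (1.28 to 1.61). In B cells 9 of 77 were lower and 1 higher, against 8.51% and 29.9% of 799 genes, and the median was −0.29 against 0.25. Rps27l, the B cell member that was higher, had a ratio of 1.72 (1.05 to 3.0) from 18 and 126 UMIs. Rps28 had the lowest ratio in dendritic cells at 0.494 (0.464 to 0.526), in NK cells at 0.577 (0.503 to 0.662) and in B cells at 0.420 (0.374 to 0.472), followed in each by Rps29 at 0.607, 0.680 and 0.503.

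Members with the shortest reading frames had the lowest ratios on the median. The 5 members with at most 250 coding bases had a median log2 ratio of −1.05 in neutrophils, against −0.60 for the 22 members of over 600 bases. In monocytes these medians were −0.80 and −0.00, in dendritic cells −0.61 and −0.05, in NK cells −0.45 and 0.14 and in B cells −0.85 and −0.28. Short members thus lay below long ones in each population, including monocytes, whose long members were level between the libraries on the median. Over members, coding length and log2 ratio had a Spearman rho of 0.35 in neutrophils, 0.56 in monocytes, 0.42 in dendritic cells, 0.53 in NK cells and 0.37 in B cells (77 or 78 genes, which share libraries and are no independent replicates). Over other genes the rho was 0.02 in neutrophils, −0.26 in monocytes, −0.10 in dendritic cells, −0.01 in NK cells and −0.05 in B cells, so the sign seen in members was not that of other genes outside neutrophils. Other genes had medians of −0.36 at most 250 bases (91 genes) and −0.22 over 600 bases (3556 genes) in neutrophils, and of −0.00 and −0.01 in monocytes. By mRNA length the members' rho was 0.34 in neutrophils, 0.21 in monocytes, 0.19 in dendritic cells, 0.34 in NK cells and 0.22 in B cells. The 6 members with an mRNA of at most 400 bases had medians of −1.04, −0.76, −0.59, −0.48 and −0.82 in the same order. A short frame need not mean a short mRNA: Rpl41 has an mRNA of 582 bases. Among other genes with an mRNA of at most 400 bases the median was −0.74 in neutrophils (11 genes) and −0.41 in monocytes (12 genes). It was −0.38 in dendritic cells (6 genes), −1.01 in NK cells and −0.37 in B cells (4 genes each). Other genes here include the rows named as copies of members. In each population the lowest of this length class was Rps27rt (−2.20 in neutrophils, −1.86 in monocytes), so the class is not separate from the members. Since each age is 1 library and short members were low in every population, a difference between the libraries in the recovery of short transcripts and a difference with age cannot be told apart.

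**Figure D5:**
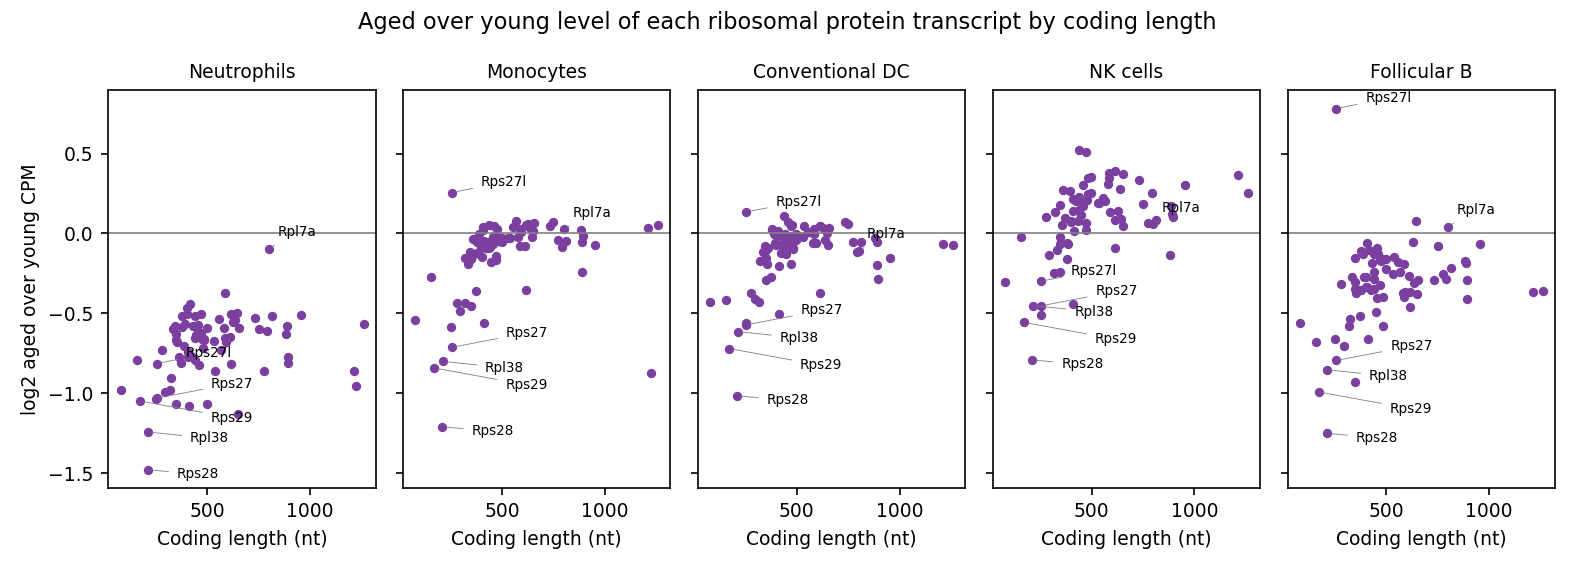
Log2 ratio of aged over young (vertical axis) against coding length in nucleotides (horizontal axis) for each member in 5 populations. Rps28 lies lowest in each panel, and in neutrophils the members of over 600 nucleotides have a median of −0.60.

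Rows named as copies of members, whose reads can hardly be told from those of the parent gene, took 0.162% of UMIs in young and 0.0424% in aged neutrophils, and 0.684% and 0.242% in monocytes. Their shares were 0.821% and 0.280% in dendritic cells, 0.782% and 0.304% in NK cells and 1.04% and 0.283% in B cells. In monocytes 15 of 15 measured copies were at least 1.5-fold lower in the aged library, with a median log2 ratio of −1.48, and in neutrophils 13 of 13 (−1.80). Dendritic cells had 13 of 13 lower (−1.48), NK cells 12 of 12 (−1.39) and B cells 11 of 11 (−1.96). Rps27rt, a retrotransposed copy of Rps27, was at 0.217 (0.198 to 0.238) in neutrophils. How reads were split between a copy and its parent was not tested, so the ratio of a parent with copies is uncertain. With copies added to their parents the monocyte median went from −0.0560 to −0.0628.

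The other lists had medians closer to 0 than the members in aged against young neutrophils. Ribosomal proteins outside the rule had 3 of 6 at least 1.5-fold lower and 0 higher (median −0.60), where all genes had 20.3% lower and a median of −0.24, with Fau at 0.600 (0.586 to 0.614). Elongation and TOP genes had 10 of 22 lower and 0 higher (−0.47), initiation factors 9 of 28 (−0.46), biogenesis genes 7 of 20 (−0.37) and mitochondrial ribosomal proteins 20 of 60 lower and 2 higher (−0.31). Eef1a1 was at 0.639 and Tpt1 at 0.782. In monocytes the TOP list had a median of −0.02 with 0 lower and 0 higher, and biogenesis genes one of 0.20 with 6 higher and 0 lower.

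Among the rarest members, Rpl39l, a paralog of Rpl39 known from testis, had 14 UMIs in all and was too rare for any test. Its frame of 156 bases differs from that of Rpl39 at 23 bases (85.3% identity). Rpl3l had 38.5 and 19.9 CPM in neutrophils and 23.5 and 12.8 CPM in monocytes, and 0 UMIs in young NK and B cells. Rps27l had 84.4 and 48.0 CPM in neutrophils, 554 and 662 CPM in monocytes and 500 and 549 CPM in dendritic cells. Each of these paralogs was below its partner in neutrophils, monocytes, dendritic, NK and B cells.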

How the data were processed

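The authors deposited raw UMI counts per gene and cell with a population label for each cell, made per the submitters' processing notes with Cell Ranger 2.1.1 on mm10. How the authors filtered cells and genes or assigned labels is not given in the sources used here. Of the cells, 27 young (1.46%) and 124 aged (3.14%) with the highest scrublet doublet scores (scanpy 1.11.5) were removed, at 8 per 1000 cells for each 1000 cells, since the automatic threshold called only 4 and 0. No other cell filter was applied, and the lowest depth was 1260 and 1451 UMIs with at most 7.23% and 7.91% mitochondrial UMIs. Counts were summed per population and library and divided by the population total to give CPM.

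Populations were compared with edgeR 4.0.16 (glmQLFit and glmQLFTest, R 4.3.3) on 4 sums, with library as a term, a minimum of 20 UMIs and Benjamini-Hochberg adjustment over all genes, called at 0.05. A second fit set library size to the summed member UMIs. The code was tested on simulated data. Aged over young ratios needed 50 UMIs over both libraries (20 in the other lists), have exact conditional binomial 95% intervals and no test, and were counted at 1.5-fold. Shares have Clopper-Pearson intervals. UMI sums carry counting error only. Alternatives were TMM, DESeq2 1.42.0, no filter on low counts, S100a8, S100a9 and Retnlg or the members left out of totals, no doublet removal, cells thinned to 500 UMIs, no library term, each library alone, cells of at least 1451 UMIs in both libraries, and copies added to their parents.

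The members, lists and rules were chosen with earlier results of these data known. Names were taken from the 8 most and 4 least abundant members, in each comparison of populations the 6 highest and 6 lowest called relative to the members, in neutrophils and monocytes the 8 highest and 8 lowest by aged over young ratio, paralogs, and the stalk and other preset genes. Rps19 and genes of the other lists that are named as examples were picked after their values were seen. Gene positions and frames come from GENCODE M21 and promoters from RefSeq. Values of some members and a frame are not reported here.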

Additional observations from a re-analysis of the deposited data

Results flagged for a closer look

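For 14 members the ratio of aged over young had an interval below 1 in neutrophils and above 1 in monocytes, so that the populations differed in direction. There is 1 library per age, and the difference between the populations was not tested. Rps27l, the paralog of Rps27, had the largest gap, at 1.19 in monocytes and 0.569 in neutrophils. Other small subunit members were Rps3 at 1.03 in monocytes (0.692 in neutrophils), Rps6, the substrate of S6 kinase, at 1.05 (0.660), Rps9 at 1.02 (0.772), Rps18 at 1.03 (0.565) and Rps19 at 1.04 (0.670). Of the large subunit there were Rpl4 at 1.04 (0.676), Rpl13 at 1.03 (0.687), Rpl14 at 1.05 (0.663), Rpl17 at 1.03 (0.689) and Rpl18 at 1.05 (0.604). Apart from Rps27l the monocyte ratios lay within 1.02 to 1.05, and the gap came from the neutrophil values.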

How the results depend on the processing

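Tests between populations were paired within library by the library term, and without it (no replicate block) 0 members were lower in monocytes than in neutrophils, 15 were higher and 0 lower in dendritic cells, 9 higher in NK cells, and 9 higher and 0 lower in B cells. There were 2 libraries per population and 14 young B cells, and of the populations compared depth per cell was lowest in neutrophils. Of 166 values recomputed, 106 stayed within the limits set for a change, 58 moved and 2 changed sign. The cause of each change was not tested beyond the scaling itself.

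For monocytes against neutrophils, the members lower numbered 2 with TMM or DESeq2 and 0 with members left out of totals or cells thinned. The median log2 difference was 1.51 with TMM, 1.45 with DESeq2 and 2.04 with the 3 abundant neutrophil genes left out.

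For dendritic cells, 12 members were higher with DESeq2 and 21 in thinned cells, and lower members numbered 2 with TMM and 0 with DESeq2 or thinning. Relative to the members, 1 was higher and 0 lower with DESeq2, and 2 and 1 in thinned cells. The median was 0.21 with TMM, 0.22 with DESeq2, 0.25 with the 3 genes left out, 0.36 with members left out and 0.25 in the young library alone.

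For NK cells, higher members numbered 1 with TMM, 3 with DESeq2 and 7 in thinned cells, and lower members 5 with TMM, 7 with DESeq2 and 1 with members left out. Relative to the members, 3 were higher and 5 lower with DESeq2, and 6 were higher in thinned cells. The median changed sign, to −0.0635 with TMM and −0.0191 with DESeq2.

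For B cells, 0 members were higher or lower with DESeq2 (2 at an unadjusted p under 0.05), and 46 were higher with members left out, which also gave a median of 0.71. Lower members numbered 0 with members left out, without doublet removal and in thinned cells. Relative to the members, 0 were higher or lower with DESeq2 and 1 lower in thinned cells.

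The aged over young median in neutrophils was −0.41 with TMM, −0.46 with the 3 genes left out, −0.70 with members left out, −0.68 in thinned cells and −0.62 at the same lowest depth. In monocytes it was −0.0730 with TMM, −0.0723 without doublet removal, −0.0409 with the 3 genes left out, −0.11 with members left out, −0.0850 in thinned cells and −0.0628 with copies added. The neutrophil share of UMIs was 7.72% with the 3 genes left out.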
